A study of Mus musculus with 15 samples.

Results

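The genes of cholesterol synthesis, uptake, transport and efflux were examined as a set of 34, picked by name for their known roles, among 27164 genes counted in mouse brain tissue. All 34 passed the filter on low counts, which kept 17151 genes. They comprise 10 early and 8 late enzymes of synthesis, 5 regulators, 6 genes of uptake, transport and storage, and 5 genes of efflux and turnover. TG mice were homozygous for PLP-α-synuclein, a transgene that places human α-synuclein under the PLP promoter, which is active in oligodendrocytes. WT mice carried no transgene and were of the C57Bl/6 background. Tissue was taken at 12 months from 4 TG females, 3 TG males, 4 WT females and 4 WT males. The source labels give bulk tissue of a brain hemisphere for all 15 libraries. In the titles, all libraries of a genotype and sex share one number, followed by a running number. The labels do not say what the shared number stands for (an animal, a cage or a litter), nor that libraries of a group came from separate animals. The shared number and the group cannot be told apart, and p-values measure only the spread between these samples.

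Little cholesterol enters the brain from the blood, and most of what it holds is made there. Oligodendrocytes, which wrap axons in myelin, are rich in it. The enzymes of synthesis are transcribed under the control of the sterol regulatory element-binding proteins, encoded by Srebf1 and Srebf2, which Scap escorts out of the endoplasmic reticulum and the Insig proteins hold back when sterol is plentiful. Liver X receptors sense oxidised sterols and switch on the transporters that export cholesterol.

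Promoter windows, from 250 bases before to 50 after each start on GRCm38.p6, were found in RefSeq for 28 of the 34 genes. The letters of a sterol regulatory element, TCACNCCAC on either strand, occurred in the window of Hmgcs1 and of no other matched gene of the set, against 1.44% of all genes. The NF-Y box CCAAT, bound by a factor that acts beside the sterol regulatory proteins, occurred in 22 of the 28, including 14 of 15 synthesis genes, against 41.1% of all genes. The GC box GGGCGG occurred in 25 of the 28, against 38.2% of all genes. No window held the LXR DR4 element, a direct repeat bound by liver X receptors, which 0.0148% of all genes had. A match is a description of these letters and not of binding. The stretches below show the element of Hmgcs1, and the NF-Y boxes of Sc5d and Msmo1, that pair being picked after their values were seen because they had small p-values between genotypes. Capitals mark the motif, on the strand of the gene or its complement (ATTGG).
Hmgcs1, chr13:119690174-119690262, plus strand: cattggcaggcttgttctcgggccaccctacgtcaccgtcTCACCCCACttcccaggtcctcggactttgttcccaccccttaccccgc
Sc5d, chr9:42264301-42264344, minus strand: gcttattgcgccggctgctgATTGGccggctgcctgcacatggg
Msmo1, chr8:64733609-64733758, minus strand: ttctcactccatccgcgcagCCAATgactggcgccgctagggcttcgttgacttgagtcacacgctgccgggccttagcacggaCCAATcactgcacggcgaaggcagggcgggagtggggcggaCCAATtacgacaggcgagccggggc

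Libraries with the same label differed in brain region markers, so they were sorted into 4 classes by 44 region marker genes, with neither genotype nor the cholesterol genes used. Hindbrain markers marked 4 libraries (TG females 1 and 4, WT female 3 and WT male 3), and cortex markers 3 (TG male 4, WT female 2 and WT male 4). Another 7 carried olfactory markers (TG female 2, TG males 1 and 3, WT females 1 and 4, WT males 1 and 2), and TG female 3 alone carried cerebellum markers. Summed choroid plexus markers were also at 743 CPM in TG female 3, against 3.51 to 15.9 CPM in the other libraries. Totals were 15170772 to 35850998 counts per library. The construction of classes first laid down, on z-scored means of each marker list, placed TG male 3 and WT male 2 with the cortex libraries. Both hold the olfactory marker Omp, at 91.5 and 50.7 CPM, against 0.516 CPM in TG male 4 and 0.326 and 1.48 CPM in the WT cortex libraries. The classes used here were adopted after results with the first construction had been seen, and they gave more calls. The first construction is named the z-scored classes below. Its counts of genes called and of genes with an unadjusted p under 0.05 are given beside those of the classes used. For cortex, with 1 TG library in the classes used, only the z-scored counts are given. With the z-scored classes, the share of all genes at an unadjusted p under 0.05 covers values below 0 only. Levels are in CPM, reads of a gene scaled to library size with TMM factors.

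Synthesis genes were more abundant in hindbrain libraries than in olfactory ones at nearly every step, and cortex libraries mostly lay between. Their summed level was 1093 to 1478 CPM in the 4 hindbrain libraries, 973 to 1116 CPM in the 3 cortex libraries and 594 to 896 CPM in the 7 olfactory libraries, and 558 CPM in the cerebellum library. The ranges of hindbrain and olfactory libraries did not overlap for 16 of 18 synthesis genes, all higher in hindbrain, where 24.8% of all tested genes were higher in that way. Cortex lay above olfactory libraries without overlap for 10 of the 18, where 19.9% of tested genes did, and hindbrain above cortex for 9 of the 18, where 29.8% did. Mean levels ran from hindbrain over cortex to olfactory for 16 of the 18. Since the classes came from these libraries, differences between them are descriptions without a test.

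**Figure D1:**
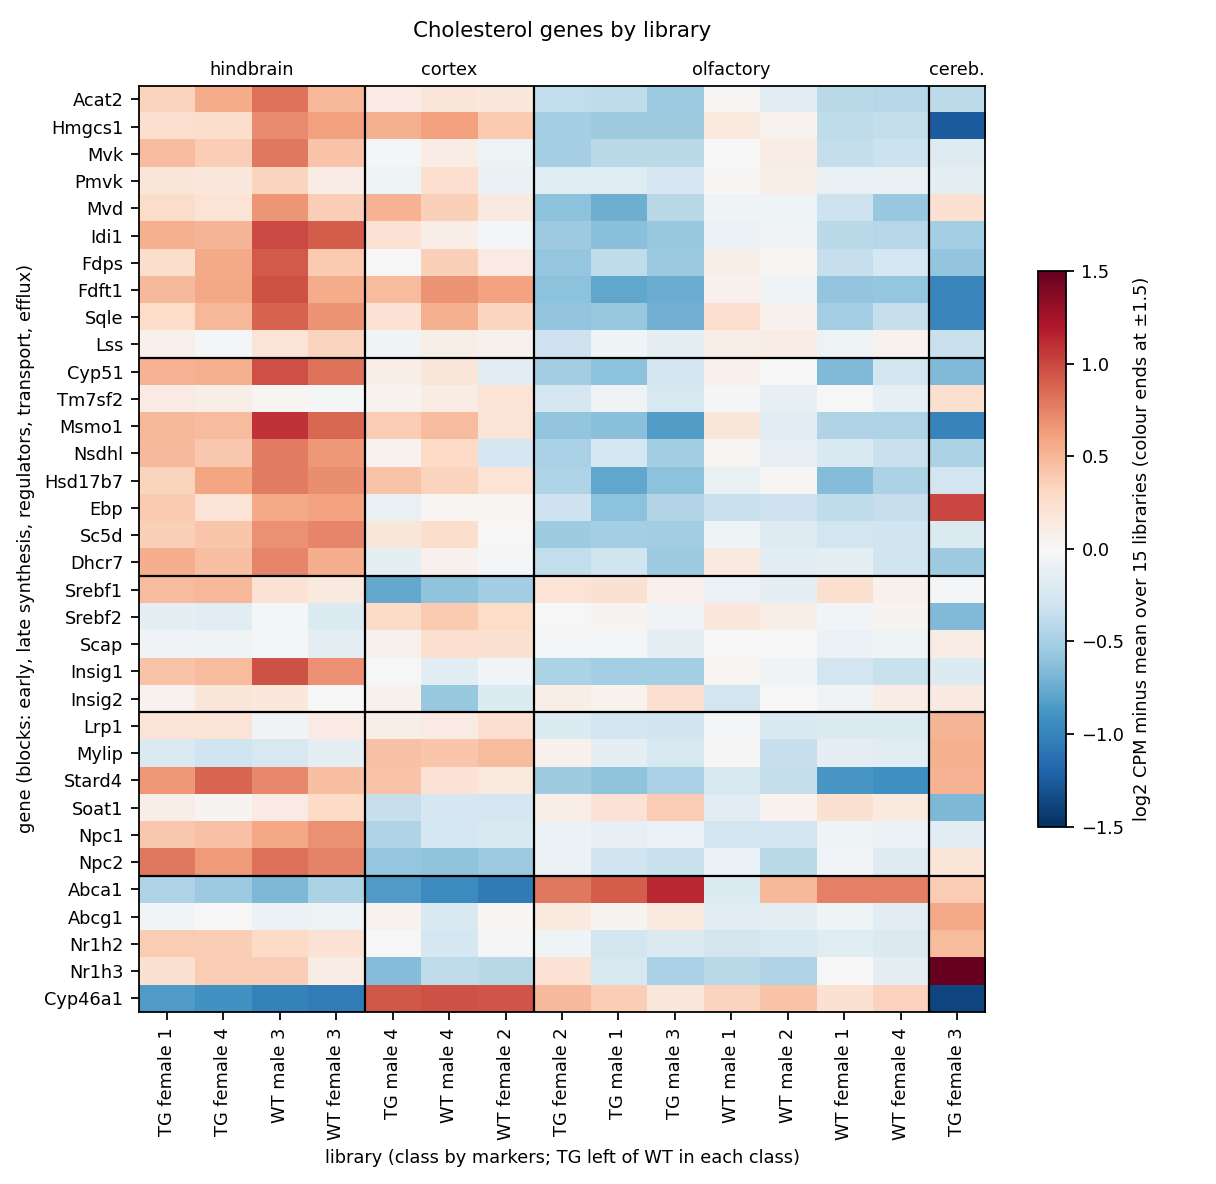
Each row is a gene of the set and each column a library, with colour giving log2 CPM minus the mean of that gene over the 15 libraries, and libraries grouped by marker class with TG left of WT. Synthesis genes were above their mean in hindbrain libraries and mostly below it in olfactory ones, and Abca1 and Cyp46a1 had other orders.

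Among the early enzymes, Fdft1, which makes squalene, was 2.30-fold higher in hindbrain than in olfactory libraries, a log2 difference of 1.20 ± 0.11 (SE). Idi1, the isomerase of isoprenoid units, also had 1.20 ± 0.08. Hmgcs1, which commits acetyl units to the mevalonate pathway, had 0.86 ± 0.08 and was the most abundant gene of the set per length, at 53.8 ± 19.0 CPM per kb (SD, n = 15). The weakest class differences belonged to Pmvk, phosphomevalonate kinase, at 0.35 ± 0.07, and Lss, which closes the sterol rings, at 0.24 ± 0.06.

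Among the late enzymes, Msmo1, which removes methyl groups from the sterol ring, had a log2 difference of 1.25 ± 0.11 between hindbrain and olfactory libraries. Cyp51, the lanosterol demethylase, had 1.14 ± 0.09, and Hsd17b7, a sterol ketone reductase, had 1.11 ± 0.12. Nsdhl, Ebp, Sc5d and Dhcr7, and the early enzymes Acat2, Mvk, Mvd, Fdps and Sqle, lay between 0.84 and 1.03. Tm7sf2, a sterol reductase, had 0.16 ± 0.07, and its reads may be shared with a gene that overlaps it on the same strand. With Pmvk and Lss also weak, the steps did not differ between classes to the same degree. Ebp, the sterol isomerase, stood out in the cerebellum library at 24.1 CPM, against 7.90 to 18.4 CPM in the other 14. That library also held choroid plexus markers, whose part was not tested.

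Outside synthesis the classes had other orders. Insig1 was 2.01-fold and Stard4, a carrier of sterol between membranes, 2.48-fold higher in hindbrain than in olfactory libraries. The sterol regulator Srebf2 itself was not higher in hindbrain, at 135 to 152 CPM, against 150.0 to 174 CPM in olfactory libraries, and was highest in cortex at 189 to 205 CPM. Npc2, which hands cholesterol out of lysosomes, lay at 94.1 to 107 CPM in hindbrain libraries, against 39.9 to 41.4 CPM in cortex and 45.7 to 58.5 CPM in olfactory ones. Npc1, its membrane partner, lay at 97.0 to 118 CPM in hindbrain libraries, against 53.6 to 62.5 CPM in cortex and 60.0 to 70.0 CPM in olfactory ones.

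Abca1 and Cyp46a1 ran against the synthesis pattern. Abca1, which exports cholesterol to lipoproteins, lay at 44.9 to 52.0 CPM in hindbrain and 34.4 to 39.9 CPM in cortex libraries, against 62.2 to 157 CPM in olfactory ones. Cyp46a1, the neuronal enzyme that hydroxylates cholesterol for removal from the brain, lay at 36.3 to 41.6 CPM in hindbrain and 144 to 146 CPM in cortex libraries, against 85.0 to 106 CPM in olfactory ones. It was lowest in the cerebellum library, at 29.0 CPM. These were the 2 genes of the set lower in hindbrain than in olfactory libraries without overlap, where 25.7% of tested genes were. Oligodendrocyte markers moved with the hindbrain class: the sum of 12 markers was 7970 to 10938 CPM there, against 1396 to 2762 CPM in cortex and 1080 to 2023 CPM in olfactory libraries, with no marker at 0. Other summed markers also differed without overlap. Neuron markers were at 7547 to 8442 CPM in hindbrain and 7265 to 10094 CPM in cortex, against 4821 to 5726 CPM in olfactory libraries. Astrocyte markers were at 5180 to 6999 CPM in hindbrain and 5160 to 5606 CPM in cortex, against 3612 to 4531 CPM in olfactory libraries. Precursor markers were at 447 to 476 CPM in hindbrain, against 214 to 337 CPM in olfactory libraries. Their part in the class differences was not tested, and in bulk tissue fewer cells of a type cannot be told apart from less RNA per cell.

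Srebf1 and Soat1 were lower in cortex than in olfactory libraries. Srebf1, whose protein also drives fatty acid synthesis, lay at 62.1 to 73.5 CPM in cortex libraries, against 96.3 to 125 CPM in olfactory ones, and at 118 to 149 CPM in hindbrain. Soat1 lay at 23.0 to 24.5 CPM in cortex libraries, against 26.1 to 37.9 CPM in olfactory ones. It was lower still in the cerebellum library, at 1.86 CPM per kb, against a mean of 2.45 CPM per kb in cortex. With Npc2 and Abca1 these were 4 of the 34 genes lower in cortex than in olfactory libraries without overlap, beside 17.9% of tested genes. The share in the set was not above that of all genes.

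Mylip, which marks lipoprotein receptors for breakdown, lay at 11.3 to 12.5 CPM in hindbrain libraries, against 18.5 to 19.2 CPM in cortex ones. Scap lay at 89.9 to 97.5 CPM in hindbrain libraries, against 104 to 117 CPM in cortex ones. With Srebf2 and Cyp46a1 these were the 4 lower in hindbrain than in cortex without overlap, beside 29.3% of tested genes. Nr1h3 was scarce everywhere, at 2.98 to 6.07 CPM in 14 libraries and 17.5 CPM in the cerebellum library, and Nr1h2, its relative, ranged from 51.0 to 86.2 CPM.

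**Figure D2:**
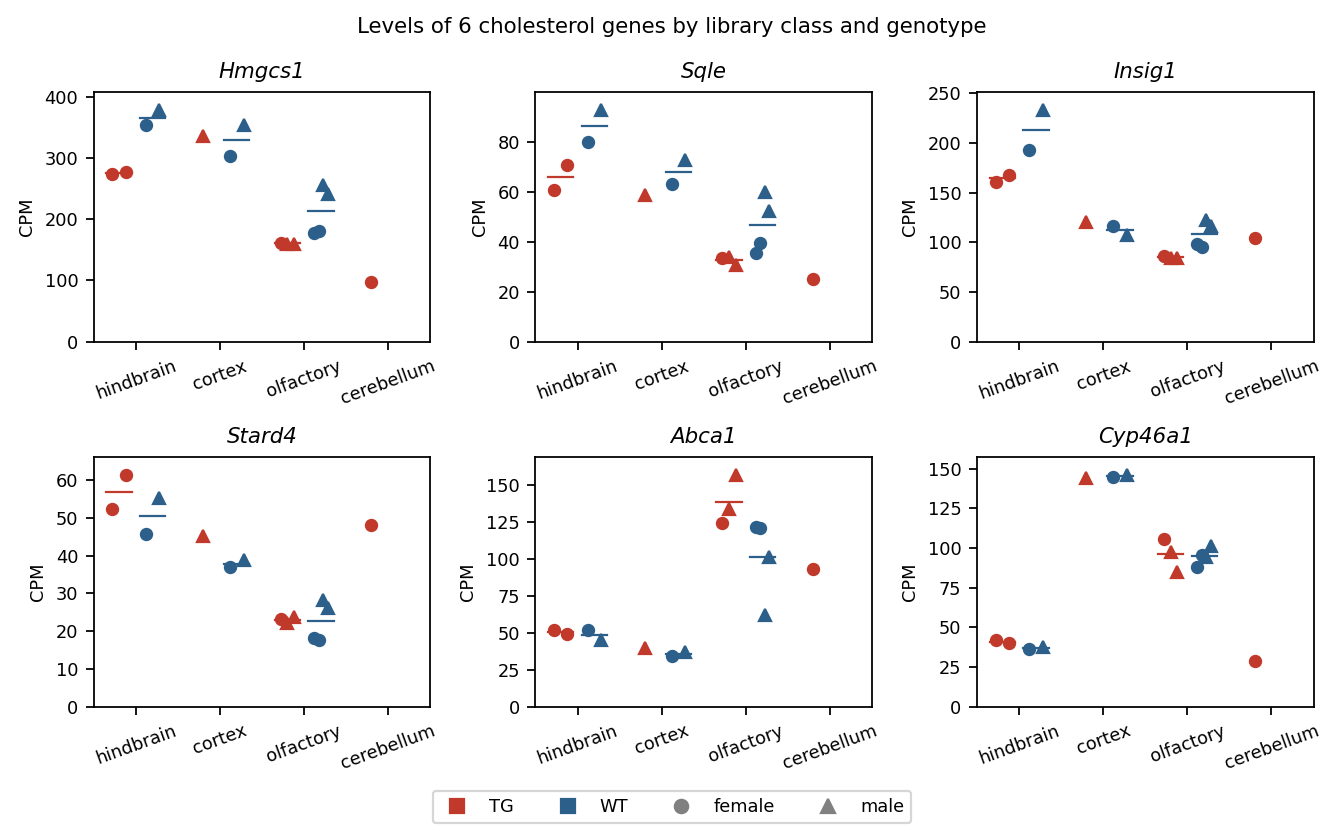
CPM of 6 genes in each of the 15 libraries by marker class, TG in red left of WT in blue, females as circles and males as triangles, bars at the mean of a group. Hmgcs1 and Sqle were lower in TG than in every WT library of the hindbrain and olfactory classes, and in the olfactory class WT females sat near TG.

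The labels imply the comparison of TG with WT over all libraries. Without a term for class, none of the 34 genes was called, against 0.111% of all tested genes, and their median log2 difference was -0.14, against 0.00 for all genes. Hmgcs1 ranged over 97.6, 162 and 335 CPM in TG (lowest, median, highest) and 177, 279 and 378 CPM in WT. The groups overlapped for all 34 genes, and 0.0933% of tested genes were lower in TG with no overlap. Of the synthesis genes, 17 of 18 were below 0, as were 50.2% of all genes. An unadjusted p under 0.05 was found for 2 of the 34, Lss and Abcg1, beside 1.83% of all genes, and DESeq2 and limma-voom also called none.

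With class as a term, every one of the 18 synthesis genes had a log2 difference below 0 (TG minus WT), as did 49.6% of all genes, and none was called. Their median was -0.22, against 0.00 for all genes. The smallest adjusted p-values by the quasi-likelihood F test of edgeR, Benjamini-Hochberg adjusted, were 0.0782 for Sqle, squalene epoxidase, at -0.41 ± 0.09, 0.0947 for Hmgcs1 at -0.32 ± 0.07 and 0.116 for Sc5d, a late desaturase, at -0.25 ± 0.06. An unadjusted p under 0.05 with a lower value in TG was found for 15 of the 18, against 4.14% of all genes. In either direction 18 of the 34 had one, against 8.4%. With the z-scored classes, to which the 8.4% does not apply, 15 of the 34 had one in either direction. There 13 of the 18 had one with a lower value in TG, against 2.51% of all genes. Of all tested genes 0.496% were called. DESeq2 called 6 of the 34 (Hmgcs1, Fdps, Sqle, Msmo1, Sc5d and Abcg1), limma-voom called 0, and with the z-scored classes 0 were called and the smallest adjusted p of a member was 0.360 by the same edgeR test. The 18 values were below 0 in all 27 alternatives run on that comparison. These genes share regulators and libraries, so the 18 are not independent observations.

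**Figure D3:**
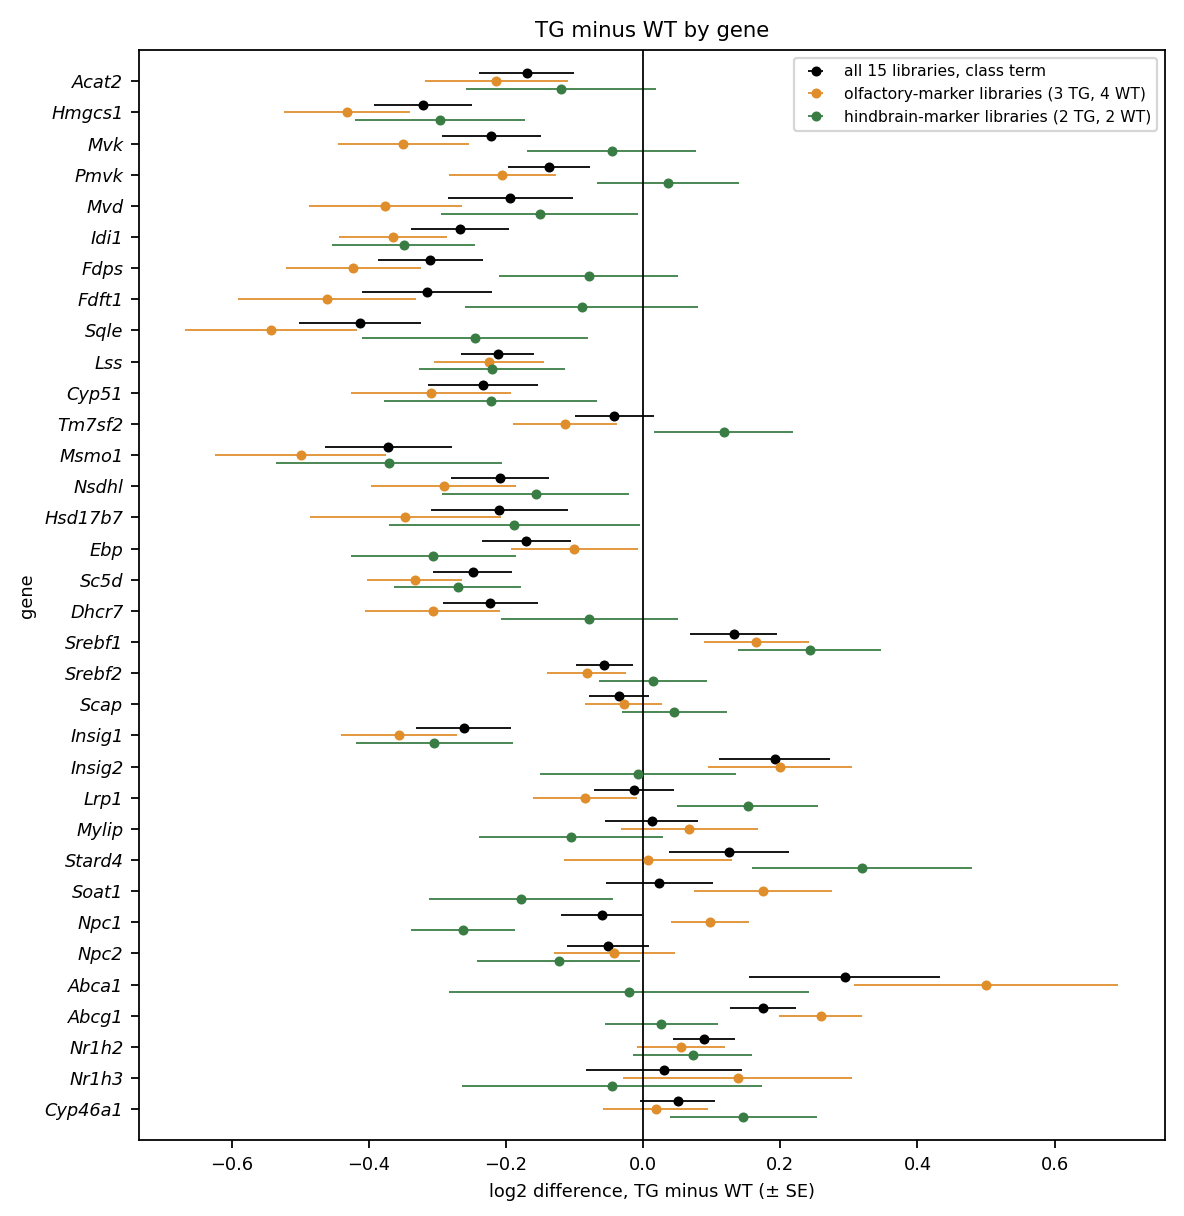
Log2 differences, TG minus WT, with SE as bars, for each gene of the set in all 15 libraries with a class term, in olfactory libraries (3 TG, 4 WT) and in hindbrain libraries (2 TG, 2 WT). With all 15 libraries the synthesis genes lay left of 0, and edgeR called no gene shown.

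Regulators had differences of both signs between genotypes. The 5 genes of efflux and turnover all lay above 0, where 49.6% of all genes lay below it. Insig1, whose product retains the sterol regulatory proteins, had -0.26 ± 0.07, and its relative Insig2 had 0.19 ± 0.08. Srebf1 had 0.13 ± 0.06, Srebf2 -0.06 ± 0.04 and Scap -0.04 ± 0.04. Abca1 had 0.29 ± 0.14, Abcg1, another exporter, 0.17 ± 0.05, and the liver X receptor genes Nr1h2 and Nr1h3 had 0.09 ± 0.05 and 0.03 ± 0.11. Lrp1, a lipoprotein receptor, Mylip, Stard4, Soat1, which stores sterol as esters, Npc1, Npc2 and Cyp46a1 lay between -0.06 and 0.13. None of these 16 genes was called by edgeR, while DESeq2 called Abcg1, and edgeR called Insig1 when WT male 4 was left out. Without WT male 1, Abca1 had 0.18.

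Within olfactory libraries, the class with most libraries, the 18 synthesis genes had a median of -0.34, all 18 below 0, as were 48.3% of all genes. Hmgcs1 lay at 162, 159.6 and 159.9 CPM in TG female 2 and TG males 1 and 3, against 177, 181, 255 and 241 CPM in WT females 1 and 4 and WT males 1 and 2. Sqle lay at 33.3, 33.8 and 30.5 CPM in the same TG libraries, against 35.4, 39.5, 60.0 and 52.3 CPM in the WT libraries. The TG values sat close together, the WT females lay just above them, and the WT males lay well above both.

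Idi1 lay at 53.8, 50.8 and 52.8 CPM in TG female 2 and TG males 1 and 3, against 59.2, 58.5, 73.9 and 75.7 CPM in WT females 1 and 4 and WT males 1 and 2. Msmo1 lay at 37.5, 36.4 and 31.5 CPM in TG, against 41.4, 40.8, 64.0 and 50.4 CPM in the same WT libraries. Both repeat the order of the other enzymes, with WT males highest. For 10 of 18 synthesis genes, all TG libraries were lower than all WT ones, against 2.95% of tested genes. These were Hmgcs1, Mvk, Pmvk, Idi1, Fdps, Fdft1, Sqle, Msmo1, Sc5d and Dhcr7, which makes cholesterol in its last step. The z-scored olfactory class, with 2 TG and 3 WT libraries, had 11 of 18, where 8.26% of tested genes did.

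None of the 34 was called in the olfactory libraries, where 0.245% of tested genes were. The smallest adjusted p-values by the quasi-likelihood F test of edgeR, Benjamini-Hochberg adjusted, were 0.139 for Sc5d at -0.33 ± 0.07 and 0.152 for Hmgcs1 at -0.43 ± 0.09. By unadjusted p under 0.05, 18 of the 34 passed, beside 7.75% of all genes. With the z-scored classes 1 did, and none of the synthesis genes was lower at that threshold, where 1.07% of all genes were lower. DESeq2 called 6 and limma-voom 0, and edgeR with the z-scored classes called 0. Insig1 had -0.36 ± 0.08, with 86.6, 84.8 and 84.8 CPM in TG female 2 and TG males 1 and 3, against 98.8, 95.4, 122 and 116 CPM in WT females 1 and 4 and WT males 1 and 2.

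The exporters ran the other way in olfactory libraries. Abca1 lay at 124, 134 and 157 CPM in TG female 2 and TG males 1 and 3, against 122, 121, 62.2 and 102 CPM in WT females 1 and 4 and WT males 1 and 2. Abcg1 lay at 100.1, 93.0 and 99.8 CPM in TG, against 86.4, 81.0, 80.1 and 81.8 CPM in WT. The groups did not overlap for either gene, where 3.83% of tested genes were higher in TG in that way, and the margin for Abca1 was small. Their log2 differences were 0.50 ± 0.19 and 0.26 ± 0.06. EdgeR called neither, and DESeq2 called Abcg1. Abca1 rested in part on WT male 1, without which its difference was 0.29. WT male 1 carried more of the striatal marker Drd1, at 88.5 CPM, than the other olfactory libraries. It was not alone, as TG female 2 held Drd1 at 72.8 CPM and WT female 4 at 40.4 CPM, with the rest lower. WT male 2 carried more of the cortical marker Neurod6, at 56.4 CPM, than the other olfactory libraries. The part of both markers in these differences was not tested.

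In hindbrain libraries Hmgcs1 lay at 273 and 277 CPM in TG females 1 and 4, against 354 and 378 CPM in WT female 3 and WT male 3. Sc5d lay at 88.2 and 92.1 CPM in TG, against 115 and 111 CPM in WT. Both TG libraries were lower than both WT ones for 11 of 18 synthesis genes, beside 20% of tested genes, and Tm7sf2 was higher. The median of the 18 was -0.17 and 16 were below 0, beside 50.6% of all genes. Tm7sf2 was among the 18.7% of tested genes higher without overlap. None of the 34 was called in edgeR, DESeq2 or limma-voom, and edgeR called 0.07% of all genes. An unadjusted p under 0.05 was found for 8 of the 34, beside 5.81% of all genes. With the z-scored classes 0 had one, where 1.41% of all genes had one and were lower in TG.

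Both TG hindbrain libraries were female, and 1 of the 2 WT libraries was male. Summed oligodendrocyte markers were 7970 and 9092 CPM in TG, against 9474 and 10938 CPM in WT, all 12 markers being detected in each. A covariate of these markers was among 10 alternatives to the hindbrain fit that kept all libraries. Over these none of the 34 was called, and the median of the set lay between -0.17 and -0.04. The part of the markers in the hindbrain differences was not tested beyond that. Npc1 had -0.26 ± 0.08 in hindbrain and 0.10 ± 0.06 in olfactory libraries, and the difference between classes, -0.36 ± 0.10, was not called. The difference between classes was below 0 for 1 of the 18 synthesis genes, beside 51.4% of all genes. No gene of the set was called for that difference between classes, where 0.0117% of tested genes were. By unadjusted p under 0.05, 2 of the 34 passed, beside 5.46% of all genes, and DESeq2 and limma-voom called 0. With the z-scored classes 0 passed, where 0.91% of all genes passed with a value below 0.

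The cortex class held 1 TG library, so its fit assumes that this library varies like the other groups. Hmgcs1 lay at 335 CPM in TG male 4, within the 303 and 354 CPM of WT female 2 and WT male 4. Sqle lay at 58.6 CPM in TG, against 62.9 and 72.6 CPM in WT. Of the 18 synthesis genes, 8 were below both WT libraries and 3 above, where 37.3% of tested genes were below and 35.4% above. Summed oligodendrocyte markers were 1396 CPM in TG, against 2762 and 2263 CPM in WT female 2 and WT male 4, and summed neuron markers were 10094 CPM in TG, against 8209 and 7265 CPM in WT. With an oligodendrocyte covariate the median log2 difference of the set was 0.059, against -0.085 without it. The part of the markers in the cortex values was not tested beyond that. The log2 difference was below 0 for 15 of the 18, beside 51.4% of all genes. The set had no call there, at 0.274% of tested genes called and with 2 of the 34 at an unadjusted p under 0.05 (6 with the z-scored classes), beside 10.8% of all genes. DESeq2 and limma-voom also called none. The z-scored cortex class, with 2 TG and 3 WT libraries, had 2 of 18 below without overlap, against 6.07% of tested genes. In that class 4 of the 18 were lower at an unadjusted p under 0.05, where 2.59% of all genes were. In either direction 6 of the 34 passed. Of the 34, 0 were called there, where 2 of all tested genes were.

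**Figure D4:**
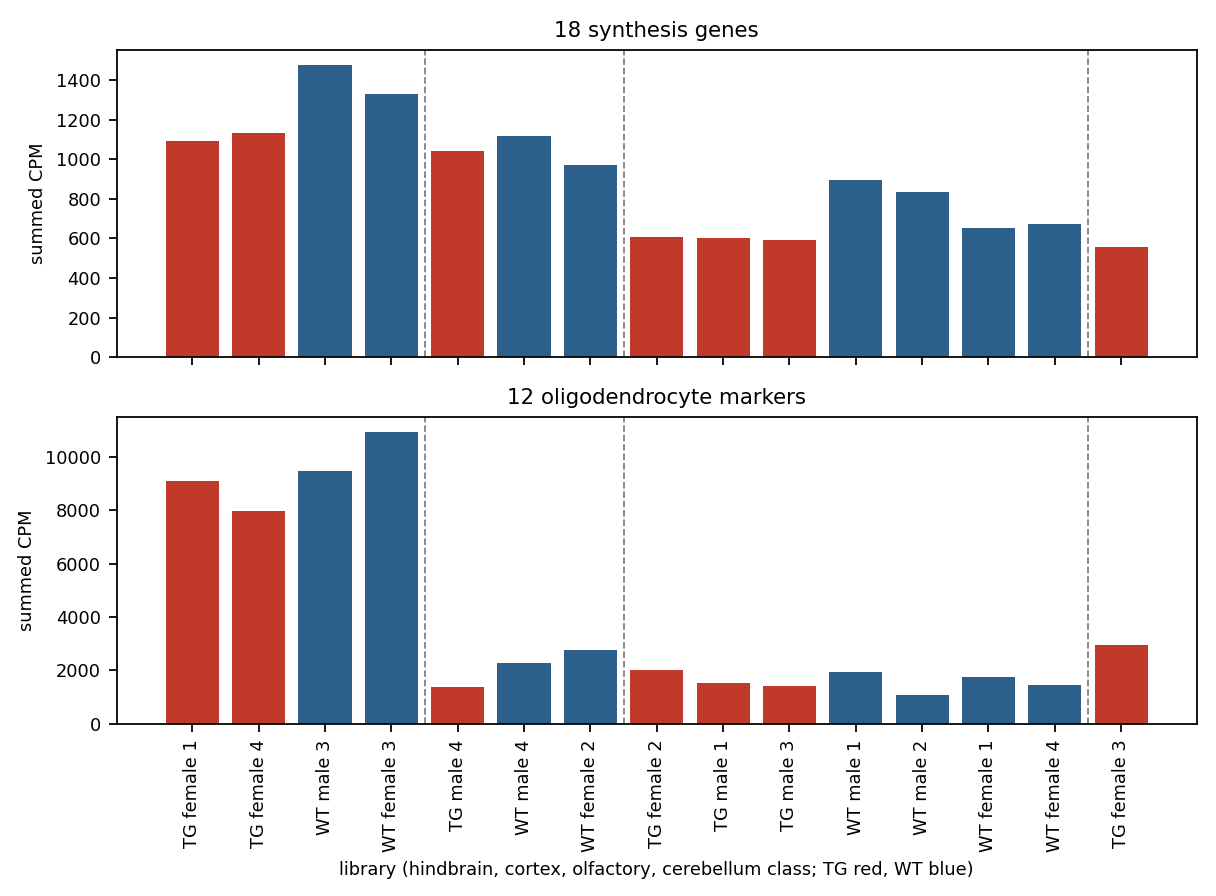
Summed CPM of the 18 synthesis genes (top) and of 12 oligodendrocyte markers (bottom) in each library, by class from left to right, TG red and left of WT blue. Olfactory TG libraries reached 594 to 606 CPM for synthesis, below the WT females at 654 and 673 CPM and the WT males at 837 and 896 CPM.

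The genotype difference was then fitted in each sex with class as a term. Among males, all 18 synthesis genes were below 0, beside 48.1% of all genes, with a median of -0.31, and Sqle and Fdft1 passed the threshold narrowly. Sqle lay at 33.8, 30.5 and 58.6 CPM in TG males 1, 3 and 4, against 60.0, 52.3, 92.5 and 72.6 CPM in WT males 1 to 4. Fdft1 lay at 23.4, 23.9 and 55.9 CPM in TG males, against 42.0, 38.0, 78.0 and 64.0 CPM in WT males. The groups overlap because each holds several classes.

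Adjusted p-values by the quasi-likelihood F test of edgeR, Benjamini-Hochberg adjusted, were 0.0464 for Sqle, at -0.60 ± 0.11, and 0.0466 for Fdft1, at -0.56 ± 0.10. Of all tested genes 0.268% were called in males, 0.163% as lower. By unadjusted p under 0.05, 19 of the 34 passed, beside 16.8% of all genes. With the z-scored classes 9 did, and 6 synthesis genes were lower at it, where 3.41% of all genes were lower. Neither Sqle nor Fdft1 was called with the z-scored classes, where their adjusted p-values by that edgeR test were 0.678 and 0.778. Both also missed the threshold in 12 of 15 fits that left out 1 library, passing only without TG female 3, WT male 2 or WT male 4. DESeq2 called 7 genes of the set in males and limma-voom 1.

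Within olfactory libraries, 17 of 18 synthesis genes were lower in both TG males than in both WT males, beside 23.1% of tested genes. Among females, 17 of 18 were below 0, beside 51.4% of all genes, with a median of -0.14 and none of the 34 was called, where 0.122% of all genes were. An unadjusted p under 0.05 was found for 4 of the 34 in females, beside 5.96% of all genes, and DESeq2 and limma-voom called none. With the z-scored classes 1 had one, a synthesis gene lower in TG, where 1.42% of all genes had one and were lower in TG. Sqle had -0.21 ± 0.11 and Fdft1 -0.05 ± 0.10 in females.

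**Figure D5:**
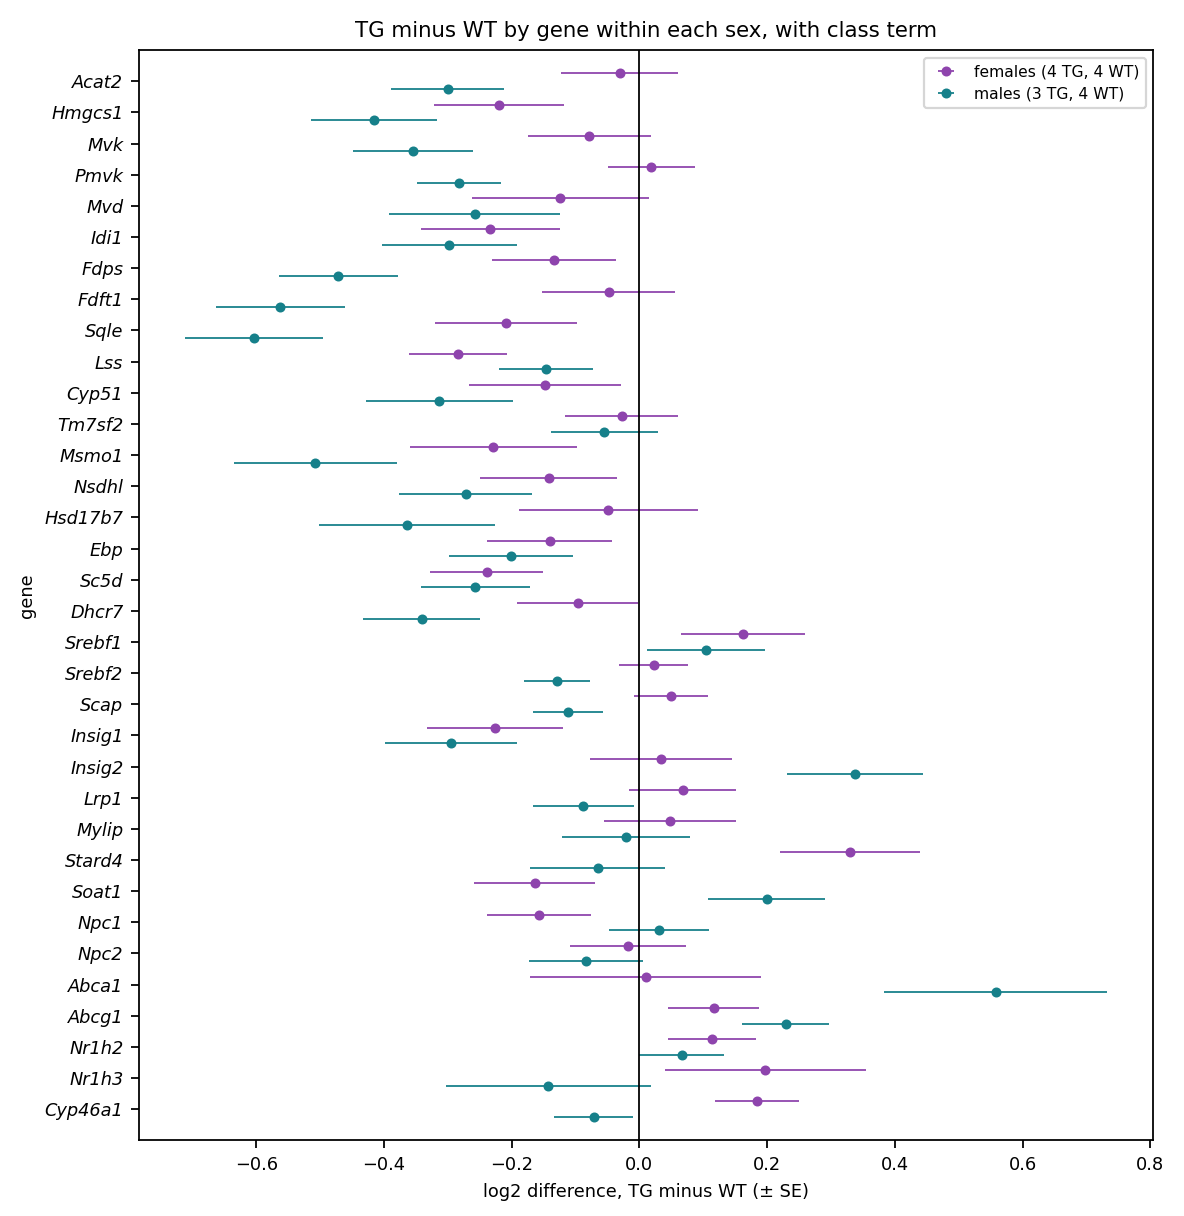
Log2 differences, TG minus WT, with SE as bars, for each gene within females (4 TG, 4 WT) and within males (3 TG, 4 WT), with a class term. Most early synthesis genes lay further from 0 in males, and Lss lay further from 0 in females.

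The difference between the sexes in the genotype effect, female minus male, was itself tested. Its median over the synthesis genes was 0.22, with 1 of 18 below 0, beside 52.4% of all genes, and no gene of the set was called, nor was any of the 17151 genes (0%). Fdft1 had 0.51 ± 0.15, and its Benjamini-Hochberg adjusted p in the edgeR quasi-likelihood fit was 0.326, and Sqle had 0.40 ± 0.16. An unadjusted p under 0.05 was found for 7 of the 34, beside 12.5% of all genes, and DESeq2 and limma-voom called none of the 34. With the z-scored classes 1 of the 34 had one in either direction. Of the 18 synthesis genes 0 had one with a value below 0, where 1.7% of all genes did.

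Between females and males of both genotypes, with class and genotype as terms, 16 of 18 synthesis genes were below 0, beside 49.6% of all genes, with a median of -0.21. Cyp51 had -0.31 ± 0.08 and Hmgcs1 -0.25 ± 0.07. None of the 34 was called, against 0.07% of tested genes, while 14 of the 34 had an unadjusted p under 0.05, beside 5.52% of all genes. With the z-scored classes 3 had one, all synthesis genes lower in females, where 1.2% of all genes had one and were lower in females. The synthesis median was then -0.13, and Cyp51 and Hmgcs1 had -0.25 and -0.16. DESeq2 and limma-voom called none either.

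Neighbouring pathways were read with the class term. All 13 genes of fatty acid synthesis, which shares the sterol regulatory proteins, were below 0 with a median of -0.10 and none was called, where 49.6% of all tested genes were below 0 and 0.496% were called. In males 7 of the 13 were below 0, where 48.1% of all genes were. Fasn, fatty acid synthase, ranged over 294, 454 and 511 CPM in TG (lowest, median, highest) and 477, 495 and 544 CPM in WT, with -0.14 ± 0.05. Acaca, which makes malonyl units, had -0.12 ± 0.04. The lists of sterol regulatory protein processing (4 of 9 below 0), of the non-sterol isoprenoid branch (4 of 9), of other uptake and transport (7 of 11) and of other efflux and oxysterol genes (7 of 13) had medians of 0.00 to 0.01 in size, and none of their genes was called. In the order of these lists, the smallest p-values belonged to Erlin2 and Mbtps2 at -0.09 each, to Fnta at -0.11 and Pggt1b at 0.12, to Osbp at -0.08 and Stard3 at -0.11, and to Abca8a, a lipid transporter, at -1.06 ± 0.30 and Cyp27a1 at -0.18.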

How the data were processed

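The deposited values are counts of reads per gene, whole numbers that the authors had not normalised. The submitters' processing notes name STAR 2.7.5b, featureCounts, Subread and the build GRCm38. Strand use is not stated in the sources used here. Reads of genes that overlap a gene on the other strand (Mvd, Fdft1, Cyp51, Srebf1, Npc1) or on the same strand (Fdps, Tm7sf2) may therefore be shared. RefSeq gave a symbol for 25275 of 27179 NCBI gene IDs, and 15 mitochondrial IDs were not analysed here. Per-length levels use union exon lengths from GENCODE.

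Counts were filtered with filterByExpr over the 4 genotype-by-sex groups, scaled with TMM and tested with the quasi-likelihood F test of edgeR 4.0.16 in R 4.3.3, with Benjamini-Hochberg adjustment at 0.05 over all 17151 genes. DESeq2 1.42.0 and limma 3.58.1 (voom) were alternatives, as were other scalings and filters, a replicate block, an oligodendrocyte covariate and leaving out each library. The tests were also run on simulated counts. A limit of 3 counts was 0.0837 to 0.198 CPM per library and covers counting error only.

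The members, lists and rule for naming genes (all 34, and in each neighbouring list those called or else the 2 with the smallest p) were chosen with earlier results of these data known. Library classes depart from the written design, which asked for Ward clustering of z-scored list means. That design described 1 TG library in the cortex class, while its own construction gave 2. After results under it had been seen, 5 constructions were compared: 2 gave its partition and 3 gave the partition used here, from log2 CPM of the 44 marker genes, which also matches the olfactory markers. With the class term the change raised the genes called to 85, against 43 under the written design, and in males the genes of the set called to 2, against 0.
The written rule for promoters asked for 3 genes with the sterol element and Srebf2. Only Hmgcs1 held that element, so NF-Y boxes of Sc5d and Msmo1 are printed with it, and Srebf2 is not.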

Additional observations from a re-analysis of the deposited data

Results flagged for a closer look

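In 136 sets of libraries (each gene among TG, WT, olfactory and hindbrain libraries, groups picked after the data were seen), 4 held a library far from the others, and chance alone gives about 1 in 20. Srebf1 lay at 62.1 CPM in TG male 4, a cortex library, against 104 to 149 CPM in the other TG libraries. Abcg1 lay at 134 CPM in TG female 3, the cerebellum library, against 88.2 to 100.1 CPM in the other TG libraries. Nr1h3, which encodes liver X receptor alpha, lay at 17.5 CPM in that library, against 2.98 to 6.07 CPM. The same library also held choroid plexus markers, whose part was not tested. Lrp1 lay at 579 CPM in WT male 1, against 475 to 506 CPM in the other olfactory libraries.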

How the results depend on the processing

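Of the 34 genes, the number called with the class term was 0, against 6 with DESeq2 and 0 to 2 when each library was left out (1 without WT male 4, WT female 2, WT female 3 or TG female 4, and 2 without TG male 4). In olfactory libraries it was 0, against 6 with DESeq2 and 1 with an oligodendrocyte covariate. In males it was 2, against 7 with DESeq2, 1 with limma-voom, 0 with RLE size factors, 0 with the oligodendrocyte covariate, 0 with the z-scored classes, and 0 to 3 over the libraries left out. The z-scored classes were the ones first written down, and the classes used gave more calls. Over all genes with the class term, 43 were called with the z-scored classes and 85 with those used, and DESeq2 called 175. The median of the set reversed to 0.059 in cortex libraries with the oligodendrocyte covariate, against -0.085. The causes were not tested. With the class term that median lay between -0.17 and -0.11 over the libraries left out. Without TG male 4 the cortex class has no TG library and gives no value.

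Deviations from the mean of each genotype-and-sex group correlated above 0.1 in 7 of 21 same-numbered pairs, over a range of -0.61 to 0.91. The highest value was between WT male 3 and WT female 3, both hindbrain libraries. Class was not removed from these deviations, so they cannot show whether replicate numbers pair the samples. With the replicate block, 0 genes of the set were called in males, and the median of the hindbrain minus olfactory difference reversed to -0.018, against 0.091.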
